A study of Mus musculus with 30 samples.

Results

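The comparison described here is that of wild type mouse embryonic fibroblasts (MEFs) kept in 100 mM NaCl for 45 min with or without the p38 inhibitor SB203580. It rests on 4 of the 30 arrays of the series, chosen by their titles, 2 with SB203580 + NaCl and 2 with NaCl alone, paired by replicate number. Of the 21689 named genes on the array, 12180 were measured on all 4 of these arrays, and all of them were compared in both directions. RNA of the treated cells was labelled with Cy5 and hybridised together with Cy3-labelled reference RNA, pooled from 2 cultures of unstressed wild type MEFs. The value of a gene is its log2 ratio to that pool, and the effect of SB203580 is the difference of log2 ratios, SB203580 + NaCl minus NaCl.

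Both groups were exponentially growing, immortalised MEFs of wild type genotype, and the RNA came from independent experiments. The protocol gives 10 µM SB203580 for 30 min before the stress, whereas the titles of the arrays give 10 mM and 2 h, and which was applied cannot be told from the labels. The series also holds wild type MEFs with SB203580 and no stress, wild type MEFs in NaCl for 2 h and 8 h with and without SB203580, wild type MEFs with anisomycin or TNFα, and p38α-/- MEFs. No array holds untreated wild type cells in Cy5 and no dyes were swapped, so a ratio to the pool carries any dye bias, which the difference between the SB203580 + NaCl and NaCl arrays does not if it is the same on each array. In bulk RNA a lower share of responding cells and less RNA per cell cannot be told apart.

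The p38 SAPK is a MAP kinase that is activated within minutes of a rise in osmolarity. SB203580 occupies the ATP site of p38α and p38β and blocks phosphorylation of their substrates, among them the kinases MK2 and MSK1. Cells under osmotic stress rapidly transcribe immediate early genes, which need no new protein synthesis, many of which encode AP-1 and other transcription factors. Several of these transcripts carry AU-rich elements and are short-lived, and proteins of the tristetraprolin family (Zfp36, Zfp36l1) bind such elements and promote decay of the mRNA.

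No gene passed an adjusted p of 0.05 in the limma test, neither lower (0 of 12180, 0%) nor higher (0, 0%) with SB203580, and the smallest adjusted p was 0.69. At an unadjusted p under 0.05, 305 genes were lower (2.5% of those tested) and 292 were higher (2.4%). Without NaCl replicate 1, 6 genes passed as lower, and without SB203580 + NaCl replicate 1, 1 passed as higher. Among the early genes named below that NaCl had raised, 3 had the smallest unadjusted p with outlier spots left out. They were Zfp36, which encodes tristetraprolin, its relative Zfp36l1, and Edn1, the precursor of the vasoconstrictor endothelin-1. Their transcripts were 2.26-fold, 1.79-fold and 2.64-fold lower with the inhibitor. Other genes had limma p-values as small in either direction, such as 5830411E10Rik (Nabp1, -0.78, unadjusted p = 0.00047) and Myh10 (0.71, unadjusted p = 0.00048). Fos and Jun, the measured AP-1 genes with the highest ratios, stood far above the pool with and without SB203580, but also with SB203580 and no stress.

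The sequences just upstream of 5 of these genes are shown because 4 of them (Zfp36, Zfp36l1, Edn1, Ptgs2) were among the early genes lower with SB203580, and Fos stayed far above the pool. They are the 250 bases before the annotated start of transcription, read 5′ to 3′ on the strand of the gene, from RefSeq on GRCm38.p6. Capitals mark a CArG box, the site known for the serum response factor, or the CRE core TGACG on either strand, part of the site known for CREB and ATF proteins.
Zfp36, chr7:28379229-28379478, minus strand: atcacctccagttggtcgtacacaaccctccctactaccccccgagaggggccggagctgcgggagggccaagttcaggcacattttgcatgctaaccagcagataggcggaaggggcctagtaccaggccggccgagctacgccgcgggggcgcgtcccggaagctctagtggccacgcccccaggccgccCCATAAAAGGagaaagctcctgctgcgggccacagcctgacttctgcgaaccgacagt
Zfp36l1, chr12:80113014-80113263, minus strand: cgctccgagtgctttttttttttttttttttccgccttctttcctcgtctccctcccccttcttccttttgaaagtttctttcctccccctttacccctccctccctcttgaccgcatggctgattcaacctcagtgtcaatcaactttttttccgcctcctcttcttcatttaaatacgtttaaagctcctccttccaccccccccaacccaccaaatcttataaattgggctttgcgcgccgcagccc
Edn1, chr13:42301226-42301475, plus strand: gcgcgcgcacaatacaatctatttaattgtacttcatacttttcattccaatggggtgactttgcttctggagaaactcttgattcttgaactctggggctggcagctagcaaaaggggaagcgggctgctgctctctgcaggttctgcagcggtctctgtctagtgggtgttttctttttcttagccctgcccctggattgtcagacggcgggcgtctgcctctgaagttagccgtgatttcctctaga
Ptgs2, chr1:150099781-150100030, plus strand: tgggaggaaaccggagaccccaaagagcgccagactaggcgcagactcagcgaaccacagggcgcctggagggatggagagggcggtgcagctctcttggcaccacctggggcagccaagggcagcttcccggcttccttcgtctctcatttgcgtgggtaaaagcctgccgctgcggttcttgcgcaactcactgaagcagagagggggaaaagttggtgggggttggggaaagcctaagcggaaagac
Fos, chr12:85473640-85473889, plus strand: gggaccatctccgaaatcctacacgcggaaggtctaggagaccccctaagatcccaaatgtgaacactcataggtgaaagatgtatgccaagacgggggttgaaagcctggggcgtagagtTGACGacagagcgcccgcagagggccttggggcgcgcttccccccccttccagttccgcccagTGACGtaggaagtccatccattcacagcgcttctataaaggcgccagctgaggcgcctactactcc

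Both strands were searched for the CArG box, for TGACG, for the AP-1 site TGACTCA, for the TATA box TATAAA and for the GC box GGGCGG. Bases farther upstream than 250 and bases after the annotated start were not searched, so that a motif absent here may lie beyond the window on either side. Zfp36 held 1 CArG box, 58 bases before the start, and such a box lay in 1.6% of the 27025 genes with a promoter in the table. Fos held TGACG at 129 and at 66 bases before the start, and TGACG, which also occurs within the full site TGACGTCA, lay in 19.8% of genes. A TATAAA stood 29 bases before the start of Zfp36l1 and 33 before that of Fos, against 14.3% of genes with one. GGGCGG occurred in Zfp36, Ptgs2 and Fos and in 35.4% of genes. TGACTCA, present in 5.2% of genes, occurred in none of the 5 windows, and the window of Edn1 held none of the motifs searched. Klf4 and Jun were searched in the same way and are not printed. Klf4, which was lower with SB203580, held TGACG 232 bases before the start, so TGACG was not confined to Fos. Jun, which stood far above the pool as Fos did, held no CArG box, TGACG or TGACTCA. A match describes these letters and is not evidence of binding.

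The arrays differed in quality along the replicate number. Spots marked as outliers made up 15.43% and 44.84% of spots on the NaCl arrays (replicates 1 and 2) and 7.069% and 36.42% on the SB203580 + NaCl arrays, where all 30 arrays spanned 6.775% to 44.84%, and these spots were left out. This is why only 56.2% of genes were measured on all 4 arrays. The probes of all 13 fibroblast markers, such as Col1a1, Vim and Pdgfrb, were well above background in Cy5 on all 4 arrays. So were those of all 24 markers of white blood, endothelial, epithelial, muscle and neural cells, so that this flag does not tell cell types apart. With outlier spots kept, the fibroblast markers differed by -0.38 to 0.09 with SB203580, with a median of -0.04.

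Zfp36 had log2 ratios of 1.41 and 1.38 on the NaCl arrays and of 0.19 and 0.26 on the SB203580 + NaCl arrays. Both NaCl arrays stood above both arrays with the inhibitor, and replicates of a group lay close together. The difference was -1.17 ± 0.27 (SE), with an unadjusted p of 0.00083 and an adjusted p of 0.95 from limma. The rise over the pool in NaCl alone passed the test (adjusted p = 0.00095), and the ratio with the inhibitor did not pass it (adjusted p = 0.41). The 2 tests against the pool called 1151 genes lower (8.66%) and 1394 higher (10.5%) in NaCl, and 1675 (11%) and 2035 (13.3%) with SB203580 + NaCl. One of its 2 probes was marked as an outlier on both replicate 2 arrays, and the other, measured on all 4, read 1.64 and 1.38 against 0.36 and 0.26.

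Zfp36l1 encodes a second decay factor of the same family. Its log2 ratios were 1.01 and 1.14 in NaCl and 0.21 and 0.26 with SB203580 + NaCl. The groups did not overlap, and its 2 probes, measured on all 4 arrays, gave nearly the same values. The difference of -0.84 ± 0.17 had an unadjusted p of 0.00026 and an adjusted p of 0.80. The third family member on the array, Zfp36l2, read -0.50 and 0.17 in NaCl and -0.44 and 0.11 with the inhibitor, a difference of -0.00. NaCl alone raised Zfp36l1 over the pool (adjusted p = 0.00031), and with SB203580 its ratio did not pass the test (adjusted p = 0.17).

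Edn1 read 2.16 and 1.84 in NaCl and 0.88 and 0.32 with SB203580 + NaCl. Both NaCl arrays stood well above both arrays with the inhibitor. Its 1 probe gave a difference of -1.40 ± 0.34 (unadjusted p = 0.0011, adjusted p = 0.95), and with the inhibitor 30.0% of the log2 ratio to the pool remained. With SB203580 and no stress Edn1 lay below the pool, so this percentage is not the part that NaCl added. Edn1 and Zfp36 were the only genes with a bright probe among the 7 (0.0575% of genes tested) that were at least 2-fold lower in both pairs. The other 5 were Olfr1484, A630033H20Rik, D10Ertd755e, Mill1 and 6720482D04, whose mean log2 Cy5 signals lay between 6.33 and 6.85, among the 3045 dimmest genes (up to 8.01). The 3 genes at least 2-fold higher in both pairs (0.0246%), 6430709H04Rik, 2610030P05Rik and Gsc, were all in that set as well. These 10 genes were chosen by their values.

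Ptgs2 encodes cyclooxygenase-2, an inducible enzyme of prostaglandin synthesis whose mRNA is a known AU-rich target. It read 2.26 and 0.89 in NaCl and 0.65 and 0.26 with SB203580 + NaCl. The groups did not overlap, but the NaCl replicates lay farther apart than the means of the groups, and the difference was -1.11 ± 0.36 (unadjusted p = 0.0080). Klf4, a zinc finger transcription factor, gave 1.78 and 0.68 in NaCl and 0.79 and 0.41 with the inhibitor, a difference of -0.63 (unadjusted p = 0.022). The groups overlapped, since replicate 1 with the inhibitor stood above replicate 2 without it. The array's Nmyc1 (Mycn), a MYC family transcription factor, read 1.01 and 0.78 against 0.26 and 0.56 without overlap, a difference of -0.48 (unadjusted p = 0.0072). Over 15 alternatives of the processing the difference lay between -1.47 and -0.70 for Ptgs2, between -0.88 and -0.27 for Klf4 and between -1.09 and -0.32 for Nmyc1. Their p-values depended on the fit. Without the replicate block the unadjusted limma p was 0.077 for Ptgs2, 0.21 for Klf4 and 0.0063 for Nmyc1. In a limma fit of only the 4 arrays it was 0.040, 0.079 and 0.085.

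Ier2, a nuclear immediate early protein, had the second largest difference by the rule for named genes (-1.34, unadjusted p = 0.0044), but its probes disagreed. Its brighter probe read 1.02 and, on a spot marked as an outlier, 0.47 in NaCl, and 0.71 and 0.64 with the inhibitor. The dimmer probe read 1.27 and 2.21 in NaCl and was listed at a ratio of 0 on both SB203580 + NaCl arrays, where it was not well above background. The difference of Ier2 was -0.91 with outlier spots kept, -0.12 with normexp and loess (unadjusted p = 0.55) and -0.08 in the series matrix (unadjusted p = 0.83).

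Fos, a partner of Jun in AP-1, read 3.40 and 2.82 in NaCl and 2.40 and 2.498 with SB203580 + NaCl. The NaCl arrays stood above the others, yet the difference of -0.66 ± 0.43 had an unadjusted p of 0.15, and 78.7% of the log2 ratio to the pool remained. Jun read 3.02 and 2.35 in NaCl and 2.47 and 2.17 with the inhibitor, so the groups overlapped, with a difference of -0.37 ± 0.31 (unadjusted p = 0.26). Both genes passed the test against the pool with and without SB203580 (adjusted p = 0.00020 and 0.00043 for Fos, 6.0e-05 and 6.5e-05 for Jun). On the arrays with SB203580 and no stress, however, Fos already read 2.40 and 2.25 and Jun 2.05 and 1.64. The ratios to the pool with SB203580 + NaCl are therefore not the part that NaCl added. Id2, an inhibitor of basic helix-loop-helix factors, read 1.19 and 1.21 in NaCl and 1.24 and 1.08 with SB203580 + NaCl. Its difference of -0.04 had a 95% interval of ± 0.45. Ier5, another immediate early gene, gave 1.43 and 1.06 against 1.00 and 0.94, a difference of -0.28 (unadjusted p = 0.35).

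**Figure D1:**
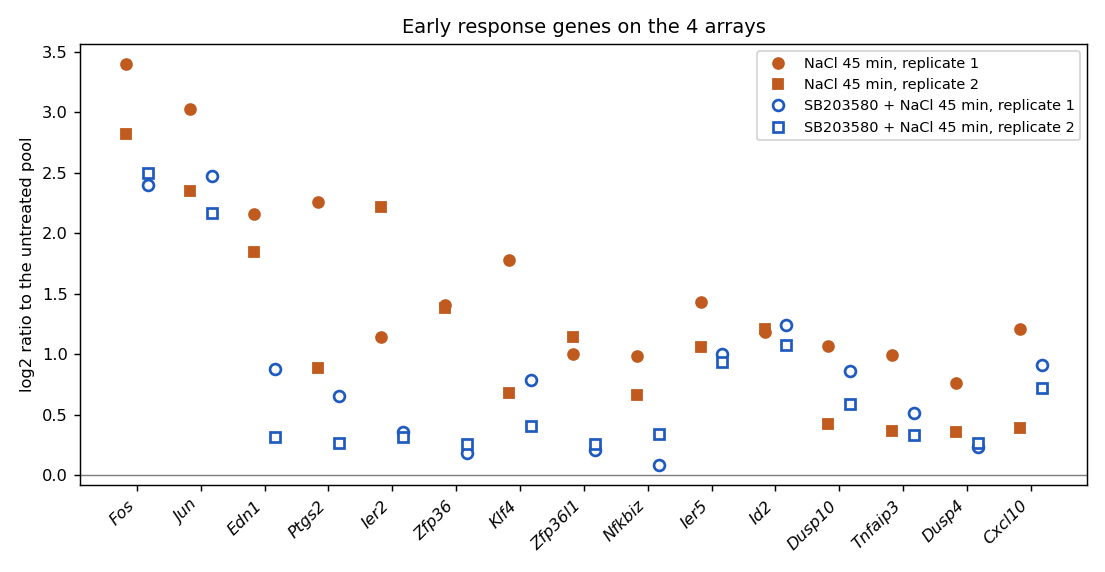
Log2 ratio to the untreated pool (y axis) of 15 early response genes (x axis) on the 2 NaCl 45 min arrays (filled) and the 2 SB203580 + NaCl 45 min arrays (open), with circles for replicate 1 and squares for replicate 2. Zfp36 and Zfp36l1 lie near 1.0 to 1.4 without and near 0.2 with the inhibitor, whereas Fos and Jun stay above 2.0 and Id2 stays between 1.08 and 1.24 on all 4 arrays. The arrays with SB203580 and no stress, on which Fos read 2.40 and 2.25 and Jun 2.05 and 1.64, are not drawn.

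Over all genes the replicate pairs shared little of the difference. The SB203580 difference of pair 1 and that of pair 2 had a Pearson correlation of 0.047 across the 12180 genes, and 52.5% of genes had the same sign in both. Among the 3045 genes with the dimmest Cy5 signal the correlation was 0.023, and it was 0.063, 0.11 and 0.11 in the following sets of 3045 genes. These values describe 4 arrays that share the pool, and genes are not independent. The spread of the difference was alike in the pairs (SD 0.34 and 0.33). Below 0 in both pairs were 2730 genes (22.4%), and above 0 in both were 3661 (30.1%).

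**Figure D2:**
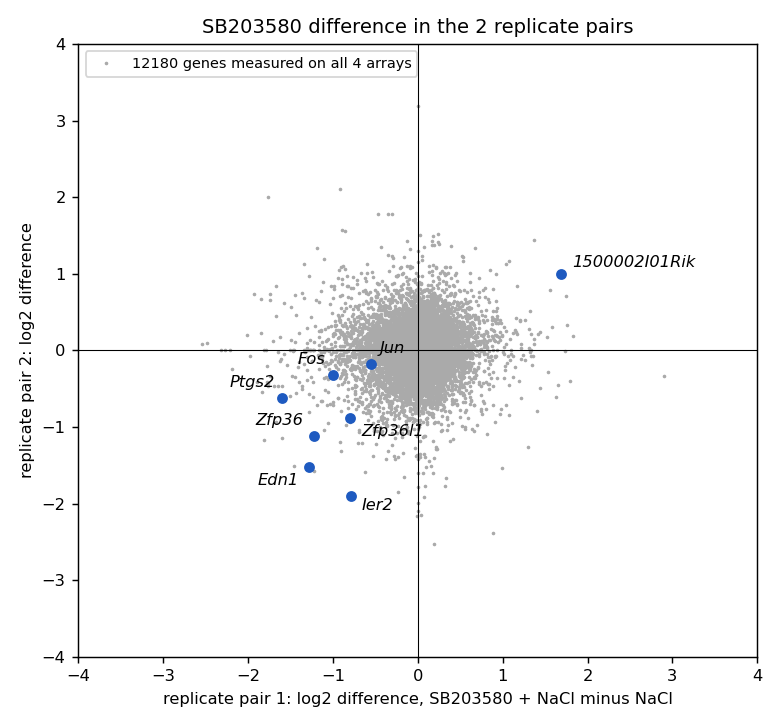
Log2 difference, SB203580 + NaCl minus NaCl, of replicate pair 1 (x axis) against pair 2 (y axis) for the 12180 genes measured on all 4 arrays (grey points), with 8 named genes in blue. The cloud is round, with a correlation of 0.047, and Zfp36 and Edn1 lie below -1 in both pairs.

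By the rule for named genes, which fills up with genes of unadjusted p under 0.05 since none passed the adjusted test, 12 genes were named in each direction. The 12 lower genes had differences of -1.40 to -1.001. Besides Edn1, Ier2, Zfp36 and Ptgs2 they were 4932441J04Rik, 3110021A11Rik, 4932412D23Rik, 4930451C15Rik (Lrrc74b), 9430037G07Rik, the taste receptor gene Tas2r110, Pkd1l2 and Vmd2l3 (Best3). Of the 12, 7 were among the 3045 dimmest genes, and the groups did not overlap for 8, where over all genes tested both arrays with SB203580 stood below both without it for 10.2% and above for 16.6%. The 12 were picked for large differences of 1 sign in both pairs, so that this count is no support. For 5 of the 12 a probe was not measured on all 4 arrays. With outlier spots kept these differed by -1.10 (Zfp36), -0.91 (Ier2), -0.54 (Pkd1l2), -0.53 (4930451C15Rik) and -0.44 (4932441J04Rik). The smallest p among the 12, 0.00017, belonged to 3110021A11Rik, a dim gene with 0.33 and 0.69 in NaCl and -0.29 and -0.89 with the inhibitor. The probe of 9430037G07Rik was not well above background on both SB203580 + NaCl arrays, and the gene was at least 1.92-fold lower there (limma, adjusted p = 0.95). It was named through the NaCl arrays, on which its probe was well above background, so that this bound is a description.

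The 12 higher genes had differences of 0.85 to 1.34, and 11 of them were among the 3045 dimmest genes. For 3 of the 12 a probe was not measured on all 4 arrays, and with outlier spots kept these differed by 0.72 (Pot1), 0.61 (6030413G23Rik) and 0.32 (Saa4). 1500002I01Rik read 2.44 and 2.78 in NaCl and 4.13 and 3.78 with SB203580 + NaCl (1.34 ± 0.33, unadjusted p = 0.0012), and with normexp and loess the difference was 0.27 (unadjusted p = 0.036). Its groups did not overlap, and it was listed at a ratio of 0 on both arrays of SB203580 alone. The others were 6030413G23Rik (B3gntl1), 2610030P05Rik, F730043H23, 1810015C11Rik, D17Ertd663e (Airn), the olfactory receptor genes Olfr1361 and Olfr1243, Lincr (Neurl3), B230117O15Rik, the acute phase gene Saa4 and Pot1 (Pot1a), a telomere-binding protein. No early response gene was among them.

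The AP-1 list had 4 of its 10 members measured, Fos, Jun, Junb and Batf. All 4 were lower in both pairs, as were 22.4% of all genes tested. Their median was -0.51, against 0.01 over all genes tested, and none had an unadjusted p under 0.05. With outlier spots kept all 10 were measured, 8 lay below 0 and the median was -0.13. Of the 10, 1 was then lower at an unadjusted p under 0.05, against 2.31% of all genes. The value of Junb (-0.73) came from different probes on different arrays. The other immediate early genes had 11 of 28 measured, 9 below 0, with a median of -0.27. At an unadjusted p under 0.05, 3 of these were lower (Ier2, Klf4, Nmyc1), against 2.5% of all genes, and 1 was higher, against 2.4%. The higher one was the nuclear receptor Nr4a3. Its probe was not well above background on both NaCl arrays and on 1 of the 2 arrays with the inhibitor. No fold is therefore given.

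Because many early genes had a spot marked as an outlier, the same lists were read with those spots kept. All 21689 genes then entered the test, none passed an adjusted p of 0.05 (smallest 0.45), and 502 were lower (2.31%) and 334 higher (1.54%) at an unadjusted p under 0.05. Of the 28 other immediate early genes, 23 lay below 0, 8 were lower and 1 higher by that measure, with a median of -0.19 against -0.02 for all genes. Ier3, an early gene linked to cell survival, read 1.03 and 0.62 in NaCl and -0.13 and -0.70 with SB203580 + NaCl (-1.24, unadjusted p = 0.00070). Cyr61 (Ccn1), a secreted matricellular protein, read 2.59 and 1.81 against 1.30 and 0.49 (-1.31, unadjusted p = 0.0060). In neither gene did the groups overlap. The kinase gene Plk2 differed by -0.62 (unadjusted p = 0.017) and Myc by -0.62 (unadjusted p = 0.031). Nmyc1 had the smallest p, with a difference of -0.78 and an adjusted p of 0.45. Egr1 read 1.82 and 0.84 in NaCl and 0.97 and 1.14 with the inhibitor, which overlapped, with a difference of -0.28.

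Of the mRNA decay factors 6 of 9 were measured, 5 below 0, with a median of -0.12. The 2 with an unadjusted p under 0.05 were Zfp36 and Zfp36l1, where 2.5% of all genes were lower by that measure. Tia1, Cnot7, Elavl1 and Zfp36l2 differed by -0.23 to 0.13. The cytokines, chemokines and AU-rich targets had 15 of 24 measured, 10 below 0, with a median of -0.23, and 2 were lower at an unadjusted p under 0.05, Ptgs2 and Vegfa. With outlier spots kept, 4 of 24 were lower and 1 was higher by that measure, against 2.31% and 1.54% of all genes. Vegfa, the vascular growth factor, had no probe measured on all 4 arrays, and its difference of -0.56 became -0.15 with outlier spots kept. Nfkbiz, a regulator of NF-κB target genes, read 0.99 and 0.67 in NaCl and 0.08 and 0.34 with SB203580 + NaCl (-0.62, unadjusted p = 0.054). Tnfaip3, an inhibitor of NF-κB signalling, differed by -0.25, and the chemokine Cxcl10 by 0.02.

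Among the p38 kinases, Mapk11 (p38β) was measured on all 4 arrays, at -0.08 and -0.12 in NaCl and 0.12 and 0.02 with SB203580 + NaCl (0.17, unadjusted p = 0.23). Mapk14, the gene of p38α, had an outlier spot on 1 array, and with it kept read 0.27 and 0.09 against 0.54 and 0.32. SB203580 blocks the activity of these kinases and not their transcription, so that these values do not check the inhibition. The whole list of p38 kinases, activators and substrates had 11 of 24 measured, 4 below 0, a median of 0.06 and none at an unadjusted p under 0.05 in either direction.

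The MAP kinase phosphatases, which remove the activating phosphates from p38, ERK and JNK, had 8 of 13 measured, 5 below 0, with a median of -0.07 and none at an unadjusted p under 0.05. Dusp4 read 0.77 and 0.36 in NaCl and 0.24 and 0.26 with SB203580 + NaCl (-0.31, unadjusted p = 0.19), without overlap. On NaCl replicate 2 its higher-reading probe was marked as an outlier, so that the value there rests on the other probe alone. That other probe, measured on all 4 arrays, read 0.35 and 0.36 in NaCl and -0.14 and -0.10 with the inhibitor. Dusp10 read 1.07 and 0.43 against 0.86 and 0.59 (-0.02). The other 6 measured, Dusp7, Dusp8, Dusp14, Dusp16, Ppm1a and Ppm1d, differed by -0.18 to 0.11. With outlier spots kept, 3 of 13 were lower at an unadjusted p under 0.05 and 0 were higher, where 2.31% of all genes were lower. They were Dusp1, with 2.66 and 2.02 in NaCl and 2.12 and 1.43 with the inhibitor (-0.57), Dusp4 (-0.46) and Dusp6 (-0.56). The groups overlapped for Dusp1.

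The osmoprotective genes, which serve uptake and synthesis of osmolytes and protein folding, had 10 of 23 measured, 4 below 0, with a median of 0.07 and none at an unadjusted p under 0.05. Akr1b3, the aldose reductase that makes sorbitol, differed by -0.32 over changing probes and by 0.20 on the 1 probe measured on all 4 arrays, which was not well above background on 3 of them. With outlier spots kept, when 2 brighter probes entered as well, it differed by 0.02. Hspa4l, a heat shock protein, had an outlier spot on 1 NaCl array and differed by 0.01 with it kept. Slc5a3, the myo-inositol transporter, read -0.84 and -0.27 in NaCl and -0.58 and -0.38 with the inhibitor (0.08). ERK feedback genes had 4 of 10 measured, all below 0, with a median of -0.10. Spry4 was the 1 with an unadjusted p under 0.05 (-0.91), and it differed by -0.21 with outlier spots kept. The lists of the integrated stress response (median -0.25, 5 measured), p53 targets (0.05, 6), EGF receptor and ligands (-0.03, 5), TGF-beta and BMP feedback (-0.07, 12), SRF and actin targets (-0.08, 4), cell cycle (0.10, 5) and housekeeping genes (0.01, 4) had no member at an unadjusted p under 0.05. With outlier spots kept, 2 of 13 p53 targets and 1 of 11 housekeeping genes were lower by that measure, against 2.31% of all genes. The others of these lists still had none.

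**Figure D3:**
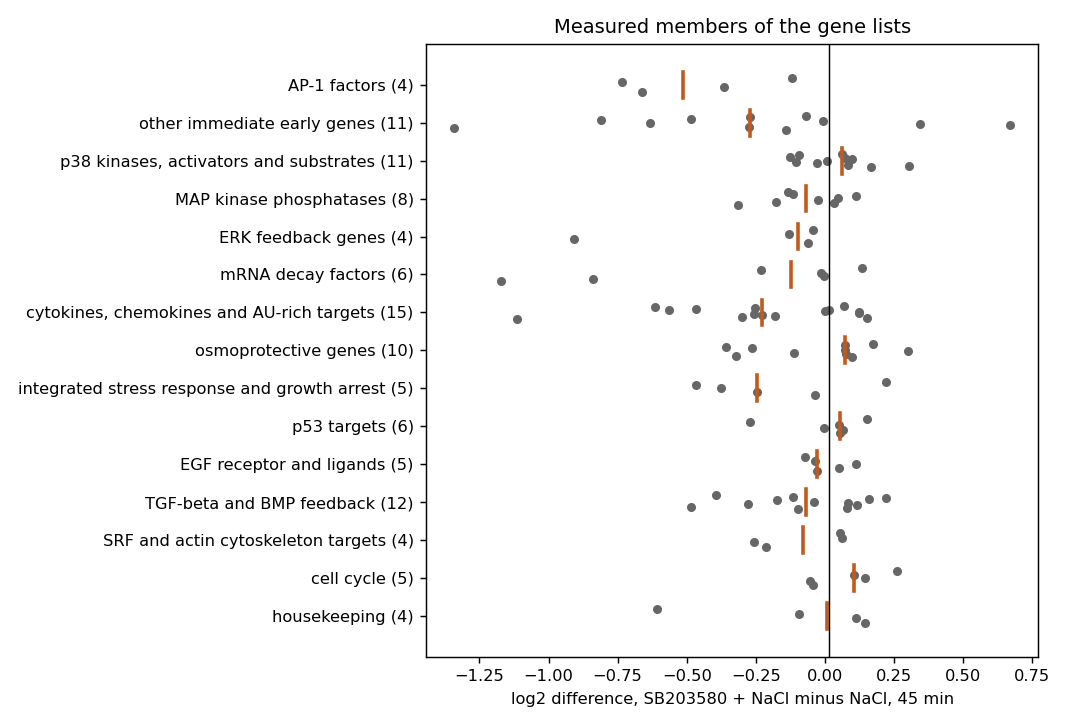
Log2 difference, SB203580 + NaCl minus NaCl at 45 min (x axis), of each measured gene of 15 lists (y axis, with the number measured in brackets). Points are genes, orange bars are list medians and the black line is the median of all 12180 genes (0.01). The 4 measured of 10 AP-1 factors have the lowest median (-0.51, and -0.13 over all 10 with outlier spots kept, which is above that of the other immediate early genes at -0.19), and the mRNA decay factors hold 2 low points, Zfp36 and Zfp36l1, apart from the rest.

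The study counts a gene as dependent on p38 when its expression is at least 50% lower with the inhibitor. At 2.5-fold or more in the mean of both NaCl arrays there were 66 genes, and 16 of them (24.2%) had a difference of -1 or less, which is such a halved expression. Only 33 of the 66 had a probe well above background on both arrays of at least 1 of the 2 groups. Some of the halved genes, such as Mill1, Olfr1484 and 6720482D04, had none, so that these shares rest partly on dim spots. The shares that follow use another measure, the part of the log2 ratio to the pool that remained, and by it 24 of the 66 (36.4%) had at most 50% of the log2 ratio with SB203580. This share was 12.1% without SB203580 + NaCl replicate 2 and 80.3% without SB203580 + NaCl replicate 1. Only 10 of the 66 reached 2.5-fold on each array: Fos, Jun, Edn1, Zfp36, 1500002I01Rik, 4932412D23Rik, A630033H20Rik, 5730422E09Rik, Gzma and Gcnt3. Of these 10, 8 had a probe well above background on both arrays of a group, 5 were at or under 50% of the log2 ratio, and 4 had a difference of -1 or less. Genes picked for high NaCl values tend to be lower on any other array, so the share was also read on arrays that did not pick them. Of 310 genes at 2.5-fold on replicate 1, 149 (48.1%) were at or under 50% on replicate 2, but only 10 of the 310 were still at 2.5-fold there. Only 135 of the 310 (43.5%) were lower at all, with a median difference of 0, so that this count includes genes with a ratio of 0 or below without the inhibitor. Of 59 picked on replicate 2, 27 (45.8%) were at or under 50% on replicate 1, and again 10 were still at 2.5-fold. Of these 59, 30 (50.8%) were lower, with a median difference of -0.01. Over all genes 5735 of 12180 were lower.

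Genes were also picked on arrays outside the comparison. Of 108 genes at 2.5-fold or more after 2 h of NaCl, 93 were measured at 45 min. With SB203580 54 of them (58.1%) were lower, with a median difference of -0.09, where 5735 of all 12180 genes were lower. In both pairs 38 were lower (40.9%, against 22.4% of all genes) and 12 were higher (12.9%, against 30.1%). At an unadjusted p under 0.05, 13 were lower (14.0%, against 2.5%) and 1 was higher (1.08%, against 2.4%). Besides the early genes above they included Bdnf, the gene of brain-derived neurotrophic factor, with 1.23 and 0.84 in NaCl and 0.23 and 0.12 with the inhibitor (-0.86, unadjusted p = 0.0027). Adamts1, an extracellular protease, read 1.39 and 0.25 against 0.26 and -0.41 (-0.90, unadjusted p = 0.013). Bdnf and Adamts1 were chosen after their values were seen. Bdnf did not overlap between the groups and Adamts1 overlapped at 0.25 and 0.26.

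The effect at 45 min was set against the effect of SB203580 on NaCl at 2 h and 8 h, which rest on other arrays. No gene differed in effect between 45 min and 2 h (0%, 0 lower and 0 higher of 11862 by limma, with 328, 2.77%, and 292, 2.46%, at an unadjusted p under 0.05). Across genes the effects at 45 min and 2 h had a Pearson correlation of 0.00, those at 45 min and 8 h of 0.01. With the effect of SB203580 on 45 min of anisomycin and of TNFα the correlation was 0.10 and 0.077. These comparisons share the pool and no treated array. Zfp36l1 had differences of -1.32 and -1.19 at 2 h and -0.97 and -1.09 at 8 h, and there it fell with SB203580 (limma, adjusted p = 0.034 and 0.016). At 2 h 4 genes fell (0.0239%) and 0 rose by that test, and at 8 h 37 fell (0.245%) and 29 rose (0.192%). Zfp36l1 was lower in all 6 pairs of arrays over the 3 times. Zfp36 differed by -1.70 and -0.87 at 2 h and by -0.03 and -0.20 at 8 h, where neither passed the test (adjusted p = 0.35 and 1.0).

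Edn1 differed by -0.50 at 2 h and -0.89 at 8 h (adjusted p = 0.98 and 0.48), and Nmyc1 by -0.85 and -0.76 (adjusted p = 0.19 and 0.052). Ptgs2 differed by -0.85 at 2 h and fell by 1.84 at 8 h (adjusted p = 0.040). Dusp4 differed by -0.72 at 2 h and fell by 1.46 at 8 h (adjusted p = 0.016). Jun was -0.37 at 45 min, 0.40 at 2 h and rose by 1.99 at 8 h (adjusted p = 0.016). The test of the difference in effect between 45 min and 8 h did not pass for Jun (-2.35, adjusted p = 0.13), Ptgs2 (0.73, adjusted p = 0.91), Dusp4 (1.15, adjusted p = 0.49) or Zfp36 (-1.06, adjusted p = 0.70).

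**Figure D4:**
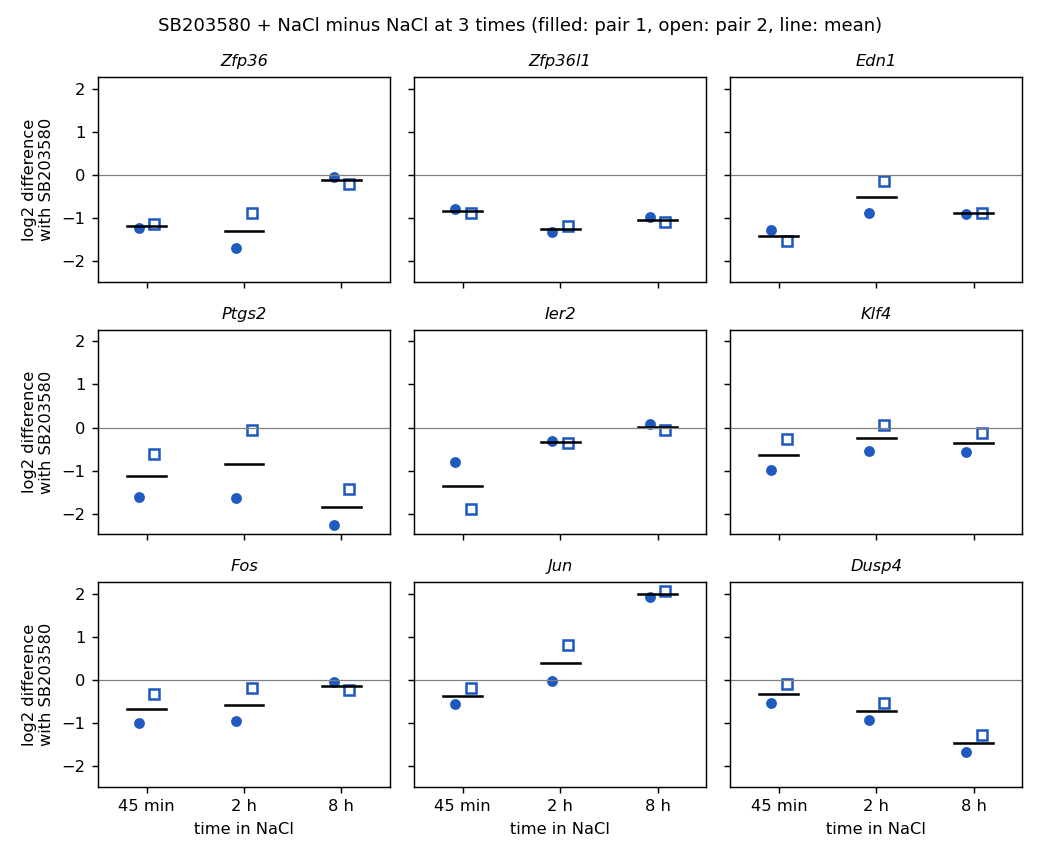
Log2 difference, SB203580 + NaCl minus NaCl (y axis), after 45 min, 2 h and 8 h of NaCl (x axis) for 9 genes, with filled circles for pair 1, open squares for pair 2 and lines for their mean. Zfp36l1 lies between -0.79 and -1.32 in every pair, and Jun moves from -0.37 at 45 min to 1.99 at 8 h.

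Between 45 min and 8 h 2 genes differed in effect of 11644, 1 lower (0.00859%) and 1 higher (0.00859%), with 335 (2.88%) and 362 (3.11%) at an unadjusted p under 0.05. They were Mmp20, an enamel protease, with a difference of -0.30 at 45 min and 1.64 at 8 h (difference in effect -1.94, adjusted p = 0.040), and the chemokine Cxcl5 (4.09, adjusted p = 0.040). Cxcl5 was listed at a ratio of 0 on all 4 arrays at 45 min. Its difference therefore came from the 8 h arrays.

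SB203580 without stress was hybridised against the pool itself, so that dye and pool offsets stay in this effect and not in that at 45 min. The 2 arrays with SB203580 alone read 2.40 and 2.25 for Fos, 2.05 and 1.64 for Jun and 1.82 and 0.82 for Cxcl10, all above the pool. For Zfp36 they read 0.42 and 0.25, for Zfp36l1 0.36 and 0.05, for Ptgs2 0.58 and 0.02 and for Edn1 -0.54 and -0.44. Zfp36, Zfp36l1, Ptgs2 and Edn1 were thus lower there than on both NaCl arrays.

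In the test of the difference between these effects, 76 genes were lower (0.647% of 11750) and 44 higher (0.374%) under NaCl than without stress, with 1456 (12.4%) and 971 (8.26%) at an unadjusted p under 0.05. Of the 120 genes that passed, 29 had an unadjusted p under 0.05 for the effect at 45 min itself. Leaving out any 1 of the 4 arrays left 9 to 28 lower and 5 to 15 higher genes. List members among them were Fos (-2.98, adjusted p = 0.030), Jun (-2.21, adjusted p = 0.030), Zfp36l1 (-1.05, adjusted p = 0.039), Cxcl10 (-1.31, adjusted p = 0.047) and Nr4a3 (1.43, adjusted p = 0.040, on the probe not well above background in NaCl). For Fos, Jun and Cxcl10 most of this difference came from the arrays of SB203580 alone. Zfp36 had a difference of -1.51 and narrowly missed the threshold (adjusted p = 0.0503). The part of the pool and of the dyes in these differences was not tested.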

How the data were processed

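Each wild type MEF sample was hybridised to a 2-colour Agilent array, with a pool of 2 untreated cultures as common reference. The authors extracted the spots with Agilent Feature Extraction (9.1 per the submitters' notes, whereas the file headers name an earlier version). The deposited log10 ratios are Cy5 over Cy3 of the processed intensities, which the software had detrended and normalized between dyes before they were deposited. It sets dim spots to a surrogate, so that 533 genes had a ratio of exactly 0 on at least 1 of the 4 arrays. The authors also deposited a log2 value per probe, used as an alternative. Its scale was judged from its values, which correlated with the ratios at 0.79 to 0.94 with slopes of 0.89 to 0.91 and medians of -0.02 to 0.01, so that centring appears close to that of the ratios.

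Control spots and spots marked as outliers were left out, log10 ratios were turned into log2, and spots were averaged by probe and probes by gene. Of 41174 probes 33453 carried a gene name, giving 21689 genes, and 19559 names were found as current symbols or unique synonyms in RefSeq. limma 3.58.1 (R 4.3.3) fitted 11 group means and the replicate number as a block to the 22 wild type arrays, with 10 residual degrees of freedom. Tests were two-sided, with Benjamini-Hochberg adjustment over genes measured on all arrays compared. The replicate numbers pair the samples: over the 55 combinations of wild type groups, deviations of same-numbered arrays correlated above 0.1 in 55 (0.13 to 0.65, median 0.46), and by the file headers the 11 replicate 1 arrays were scanned on 1 day and the 11 replicate 2 arrays on 1 other day. Python 3.11.15, numpy 2.4.6, pandas 2.3.3 and matplotlib 3.10.9 were also used, and the model was tested on simulated data.

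Named genes were the 12 with the largest difference in each direction among genes with a probe well above background on both arrays of a group and the same sign in both pairs, filled up by unadjusted p under 0.05, every p38 kinase and MAP kinase phosphatase, 10 genes of the study's RT-PCR (its Tpp taken as Zfp36), and the 5 with the smallest p in each difference of effects. Other list members and genes at 2-fold in both pairs were named after their values were seen. The comparison, lists and rules were chosen with earlier results of these data known. Median processed signals of the 4 arrays were 976 to 1808 in Cy5. The number of arrays, 2 a group, limits the precision. The p-values rest on a spread pooled over the 11 wild type groups after the replicate block, and not on that of the 2 compared groups alone. Alternatives are given in the closing section.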

Additional observations from a re-analysis of the deposited data

Results flagged for a closer look

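The effect of SB203580 under NaCl at 45 min differed from that without stress, by a limma test of the difference with an adjusted p under 0.05, for 76 genes that were lower and 44 that were higher under NaCl. The effect without stress is a ratio to the pool, so that dye and pool offsets stay in it, and their part was not tested. Of the 120 genes, 29 had an unadjusted p under 0.05 for the effect at 45 min itself. The genes with the smallest p in the test of the difference were 6030490I01Rik (Zfp799, -1.52), A730046J19Rik (-1.69), 5830411E10Rik (Nabp1, -1.52), B230354K17Rik (-1.03) and 6720482D04 (-2.50) in the lower direction. In the higher direction they were Gm1961 (Vmn2r43, 1.76), Kctd15 (1.34), E230008N13Rik (Ccdc180, 1.35), Ntn1 (2.33) and Cyp3a25 (1.00). Among the genes named for a low value at 45 min, 3110021A11Rik (-1.46) and 4932412D23Rik (-2.39) also differed. Between 45 min and 8 h 1 gene, Mmp20, was lower (-1.94) and 1, Cxcl5, was higher (4.09).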

How the results depend on the processing

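The count of 0 genes at an adjusted p under 0.05 held in 13 of the 15 alternatives. Without NaCl replicate 1, 6 genes were lower (among them Pkd1l2 and 4930451C15Rik), and without SB203580 + NaCl replicate 1 1 gene, C630015G22, was higher. Leaving out each array gave 0 to 6 lower and 0 to 1 higher at an adjusted p, 201 (without SB203580 + NaCl replicate 2) to 448 lower at an unadjusted p under 0.05, and, for the difference from no stress, 9 to 28 lower and 5 to 15 higher. For the difference from 2 h it gave 0 to 1 higher (5730421K10Rik, without SB203580 + NaCl replicate 1), and from 8 h 0 and 0. Over all alternatives Zfp36 stayed between -1.55 and -1.08, Zfp36l1 between -0.94 and -0.72 and Edn1 between -1.72 and -1.09, and their unadjusted p stayed at or below 0.0093, 0.0084 and 0.022. Fos lay between -1.15 and -0.17, both without an NaCl array. The same probes on the 4 arrays were an alternative chosen after seeing the data.

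Without the replicate block, 139 genes were lower and 174 higher at an unadjusted p under 0.05, and the difference from no stress had 4 lower and 0 higher. With outlier spots kept, 502 genes were lower, the difference from no stress had 329 lower and 758 higher, and that from 8 h 2 and 3 (Mmp20, Vat1; Ampd2, Cxcl5, Pgc). In the series matrix 471 were lower and 508 higher, with 812 and 971 for no stress and 3 and 6 for 8 h. Normexp and loess gave 250 and 69 for no stress and 4 and 2 for 8 h, the brightest probe 153 and 88 for no stress, and probes well above background 202 lower, 137 and 69 for no stress and 3 higher for 8 h. For 8 h, 0 and 0 were found with all 30 arrays, and 0 lower with Cy5 alone. Of calls at an unadjusted p under 0.05, 51.1% were lower, against 60.0% with outlier spots kept, 42.5% with normexp and 59.4% with centred ratios.

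Differences that turned sign were those of Akr1b3 (0.018 with outlier spots kept, 0.053 in the series matrix, 0.040 with Cy5 alone, 0.20 on the brightest probe measured on all 4 arrays and on the same probes), Pkd1l2 (1.59 in the series matrix, 0.29 with Cy5 alone), and, with Cy5 alone, 4932412D23Rik (0.71), 1810015C11Rik (-0.23), Dusp14 (-0.17) and, against 2 h, 2700090O03Rik (0.24). Dusp16 was -0.054 with normexp and -0.19 on probes well above background, and Fli1 against 8 h -0.38 on the brightest probe. Leaving out an array gave -0.074 to 0.14 for Dusp7, -0.24 to 0.19 for Dusp10, -0.024 to 0.12 for Dusp14, -0.25 to 0.019 for Ppm1a, -0.68 to 0.040 for Akr1b3 and -0.57 to 0.029 for Btg2.

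The share at or under 50% was 20% of 5 genes with normexp, and 12.1% to 80.3% when an array was left out. Picked on replicate 1 it was 27.3% with normexp, 33.0% in the series matrix and 25.3% on probes well above background, and picked on replicate 2 30.4% and 71.0% with normexp and the series matrix. Of genes picked at 2 h, 81.4% were lower in the series matrix, and 50.5% to 69.4% without an array. Cy5 alone gave no value for shares or no stress, which need the pool, and centring and the 4-array fit none for differences of effects. The cause was not tested.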
